A study of Mus musculus with 10 samples.

Results

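MiR-150 is the product of a hairpin that yields a microRNA from each of its arms, miR-150-5p (mmu-miR-150-5p in the files) and miR-150-3p (mmu-miR-150-3p). Both were taken by name from a count table of small RNAs, and they are 2 of its 1302 mature microRNAs and of its 6968 features. They were followed over 10 libraries of splenic B-cells, isolated as CD43-negative cells, from adult mice in a 129 background. The mice were wild-type (wt), lacked the 3'RR (the 3' regulatory region at the end of the immunoglobulin heavy chain locus, IgH), or lacked Eµ (the enhancer upstream of the IgH constant genes, removed in the EµMAR line). Cells were non-stimulated (NS) or stimulated with 5 µg/ml lipopolysaccharide (LPS), a bacterial product that activates B-cells. The dose is that of the sample labels and the study's methods, and the protocol text of the labels gives it in mg/ml. The labels give 2 days of culture for NS cells too, but the study's text speaks of cells before and after stimulation. If NS cells were not cultured, culture and LPS cannot be told apart. Wt and 3'RR-deficient cells had 2 libraries in each condition and Eµ-deficient cells had 1. Each library held the cells of 2 pooled mice, so a replicate is a pool. The Eµ-deficient line is described by the study, from earlier work, as short of follicular B-cells. Whether its B-cells in these libraries differed in make-up from those of wt mice was not checked.

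A microRNA is a small RNA that guides Argonaute proteins to messenger RNAs through its seed, bases 2 to 8, and so lowers their translation and stability. The hairpin precursor is cut into a duplex, of which usually the strand of 1 arm is kept as the guide while the other is mostly lost. MiR-150 is known as a microRNA of mature lymphocytes, in B-cells as well as in T-cells and natural killer cells. It is high in resting cells, its classical target is the transcription factor c-Myb, and its early expression disturbs B-cell development.

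The sequence shown is that of the 3p arm, the less abundant product, whose share among miR-150 reads is described below. It comes from RefSeq (GRCm38.p6), whose table held 1 of the 2 members, miR-150-3p, and the capitals mark the seed:
miR-150-3p: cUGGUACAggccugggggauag

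It has 22 bases, of which 14 are G or C (63.6%). Of the mature microRNAs of the count table found in RefSeq, 13.9% had a higher GC content. None of the other sequences among the 1679 mature names in that RefSeq table had the same seed. In mm10 coordinates miR-150-5p lies on chromosome 7 at chr7:45121762-45121783 and miR-150-3p at chr7:45121798-45121819, both on the plus strand, 22 bases long and 14 bases apart. The annotation (GENCODE M21, GRCm38) places both in Mir150, a microRNA gene of 65 bases (chr7:45121757-45121821) that overlaps no other annotated gene. The gene Fcgrt lies 17906 bases away. The count table has no row for the hairpin itself.

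Library totals lay between 3482540.0 and 18144016 counts, of which microRNA features took 51.4% to 82.1%. Replicates differed far beyond counting error, with a chi-square per degree of freedom of 815 to 3268. The second NS libraries of wt and 3'RR-deficient cells were the shallowest (3482540.0 and 3756662 counts) and departed from the first ones in a shared way, with r = 0.654 between their replicate differences across 720 features. The tested values of both arms are therefore also given without them. Levels are given as CPM, the counts of a feature scaled to the TMM-adjusted total of the microRNA class. Both arms are equally long, but how well each sequence was ligated and amplified was not tested, so levels of the 2 arms are compared as reads, not as molecules.

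In NS cells miR-150-5p was among the leading microRNAs. It was at 37853 and 61853 CPM in wt, at 46372 and 57203 CPM in 3'RR-deficient and at 24142 CPM in Eµ-deficient cells. By counts its rank among the mature microRNAs of these 5 libraries was between 3, in wt replicate 2, and 12, in Eµ-deficient cells. Its share of microRNA counts went from 2.56% (Wilson 95% interval 2.55 to 2.57) in Eµ-deficient to 7.60% (7.57 to 7.64) in wt replicate 2. Such intervals cover the sampling of reads alone. They leave out the spread between libraries, and amplified reads need not each stand for a separate molecule.

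With LPS the level was lower in every library. It was at 9092 and 6588 CPM in wt, at 10319 and 7890 CPM in 3'RR-deficient and at 9376 CPM in Eµ-deficient cells. The lowest NS library (24142 CPM) was thus above the highest LPS library (10319 CPM). Its rank among mature microRNAs was 19 to 31, and its share of microRNA counts 0.562% to 1.11%. As a share of all counts of a library, other small RNA classes included, it went from 1.54% to 4.86% without LPS to 0.418% to 0.755% with LPS.

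The 3p arm was far scarcer. It was at 413.1 and 910.5 CPM in wt, 603.4 and 733.8 CPM in 3'RR-deficient and 239.9 CPM in Eµ-deficient NS cells. With LPS it was at 142.3 and 144.5 CPM in wt, 414.1 and 310.4 CPM in 3'RR-deficient and 199.2 CPM in Eµ-deficient cells. Both wt LPS libraries were below all other libraries. NS and LPS libraries overlapped, as both 3'RR-deficient LPS libraries were above Eµ-deficient NS cells. Each value rests on 709 to 4714 reads, against 45299 to 362299 reads for the 5p arm.

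**Figure D1:**
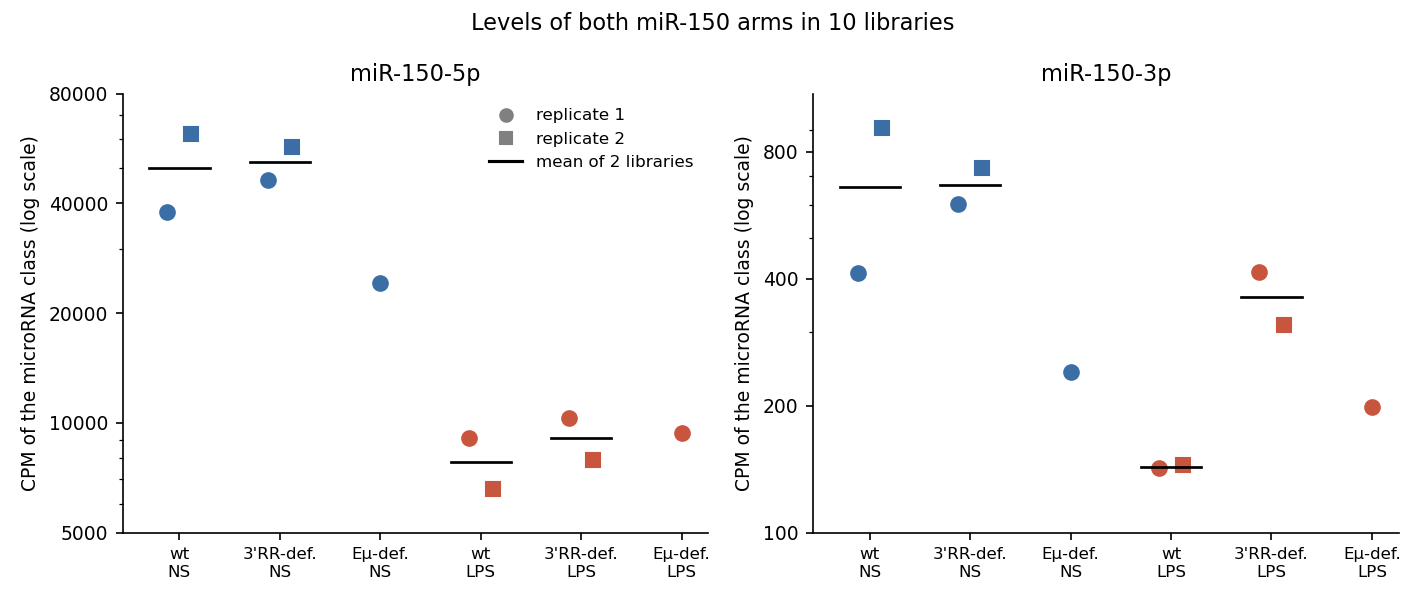
CPM (log scale) of miR-150-5p (left) and miR-150-3p (right) in each of the 10 libraries, NS in blue and LPS in red, with bars at the mean of the 2 libraries of a group. For the 5p arm the NS libraries lie at 24142 CPM or above and the LPS libraries at 10319 CPM or below, while for the 3p arm the 3'RR-deficient LPS libraries (310.4 and 414.1 CPM) lie above the Eµ-deficient NS library (239.9 CPM).

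Ordered by group means, miR-150-5p was highest in 3'RR-deficient NS (51788 CPM ± 7659, SD, n = 2) and wt NS cells (49853 ± 16971, SD, n = 2), followed by Eµ-deficient NS cells (24142 CPM, n = 1). Eµ-deficient LPS (9376 CPM, n = 1), 3'RR-deficient LPS (9105 ± 1717, SD, n = 2) and wt LPS cells (7840.0 ± 1771, SD, n = 2) followed. Within each condition the wt and 3'RR-deficient means were closer to each other than the replicates of a group. For miR-150-3p the order was 3'RR-deficient NS (668.6 CPM ± 92.2, SD, n = 2), wt NS (661.8 ± 351.7, SD, n = 2), 3'RR-deficient LPS (362.3 ± 73.3, SD, n = 2), Eµ-deficient NS (239.9), Eµ-deficient LPS (199.2) and wt LPS (143.4 ± 1.58, SD, n = 2). The means of both NS groups differed by less than the spread of their replicates. The 3'RR-deficient and wt LPS libraries did not overlap.

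The first comparison asked how miR-150 responds to LPS. Over the 3 genotypes miR-150-5p fell by 2.21 on the log2 scale (SE 0.39, 95% interval -3.05 to -1.38, edgeR adjusted p 0.00153), a 4.64-fold lower level. In this fit 186 of 988 features passed an adjusted p under 0.05 (18.8%), 117 higher and 69 lower (6.98%). In 5.77% of features all 5 LPS libraries were below all 5 NS libraries, and miR-150-5p was one of these 57, while in 10.3% all 5 LPS libraries were above. Among the 69 that fell it had the highest NS level, ahead of miR-181a-5p (34039 CPM) and let-7c-5p (21009 CPM), and the drop of its mean by 36831 CPM was the largest of all microRNA features. It was not the steepest fall, as its log2 fold change was in place 91 of 988 from the lowest, and the median over all features was 0.09.

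MiR-150-3p had a log2 fold change of -1.14 (SE 0.41, 95% interval -2.02 to -0.27), a 2.21-fold lower level that did not pass (adjusted p 0.0664, unadjusted 0.0140). It was lower with LPS within each genotype, by group mean. Of 24 other settings it passed in 10, 1 of them the exact permutation test with an unadjusted p of 0.0278. In the others its adjusted p was between 0.0109 and 0.182. It passed without wt NS replicate 1 (-1.30, adjusted p 0.0469), without Eµ-deficient NS replicate 1 (-1.49, adjusted p 0.0420) and without both second NS libraries (-0.85, adjusted p 0.0276). It did not pass with the replicate block within culture condition, which gave its smallest change (-0.75, adjusted p 0.0577), nor without wt LPS replicate 1 or 2 (adjusted p 0.140 and 0.182). MiR-150-5p passed in all 22 settings tried for it, with log2 fold changes of -2.82 to -1.86 (-2.00 without both second NS libraries). For this arm too 1 setting was the exact permutation test (-2.34), with an unadjusted p of 0.0278, the smallest its arrangements allow.

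Within wt cells the log2 fold change of miR-150-5p was -2.51 (SE 0.70, 95% interval -4.07 to -0.94, adjusted p 0.0906) and that of miR-150-3p -2.06 (SE 0.65, 95% interval -3.51 to -0.60, adjusted p 0.114). Neither passed, where 5 of 720 features (0.694%) did with edgeR, all higher, 156 had an unadjusted p under 0.05 and the DESeq2 Wald test called 98. With DESeq2 both arms passed (adjusted p 0.000288 and 0.00639). In edgeR the value of miR-150-5p was -3.09 without wt NS replicate 1, -2.71 without 3'RR-deficient NS replicate 1 and -2.18 without both second NS libraries. That of miR-150-3p was -2.79, -2.27 and -1.44 in the same settings. Leaving out wt NS replicate 1 or both second NS libraries leaves 1 wt NS library, which these fits assume to vary like the other groups. A replicate block within culture condition was added after seeing that NS libraries of the same number departed together. With it both arms passed in wt (-2.05, edgeR adjusted p 0.00681, and -1.53, adjusted p 0.0359), in a fit that called 99 features.

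In 3'RR-deficient cells miR-150-5p changed by -2.39 (SE 0.70, 95% interval -3.95 to -0.83, adjusted p 0.126) and miR-150-3p by -0.77 (SE 0.63, 95% interval -2.17 to 0.64, adjusted p 0.550). Again neither passed, against 7 of 720 features (0.972%), all higher. MiR-150-5p passed with DESeq2 (-2.39, adjusted p 0.00175), which called 90 features. It also passed in edgeR with the replicate block within culture condition (-1.96, adjusted p 0.0101), where 90 features were called as well. Without both second NS libraries its value was -2.52. The setting without both second NS libraries again has 1 NS library, assumed to vary like the other groups. MiR-150-3p passed in none of its 21 settings, with values from -0.37 (block within culture condition) and -0.40 (GC correction) to -1.38 (all feature classes scaled together), and -0.91 without both second NS libraries. In Eµ-deficient cells, with no replicate, the log2 ratio of LPS to NS was -1.36 for the 5p and -0.27 for the 3p arm.

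Between same-numbered libraries the LPS level of miR-150-5p was 0.240 times the NS level in wt and 0.223 times in 3'RR-deficient cells for replicate 1. It was 0.107 and 0.138 times for replicate 2. For miR-150-3p the ratios were 0.345 and 0.687 for replicate 1 and 0.159 and 0.423 for replicate 2. For both arms and genotypes the fall was larger between the second libraries, which include the shallow NS libraries. The share of depth in this was not tested.

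**Figure D2:**
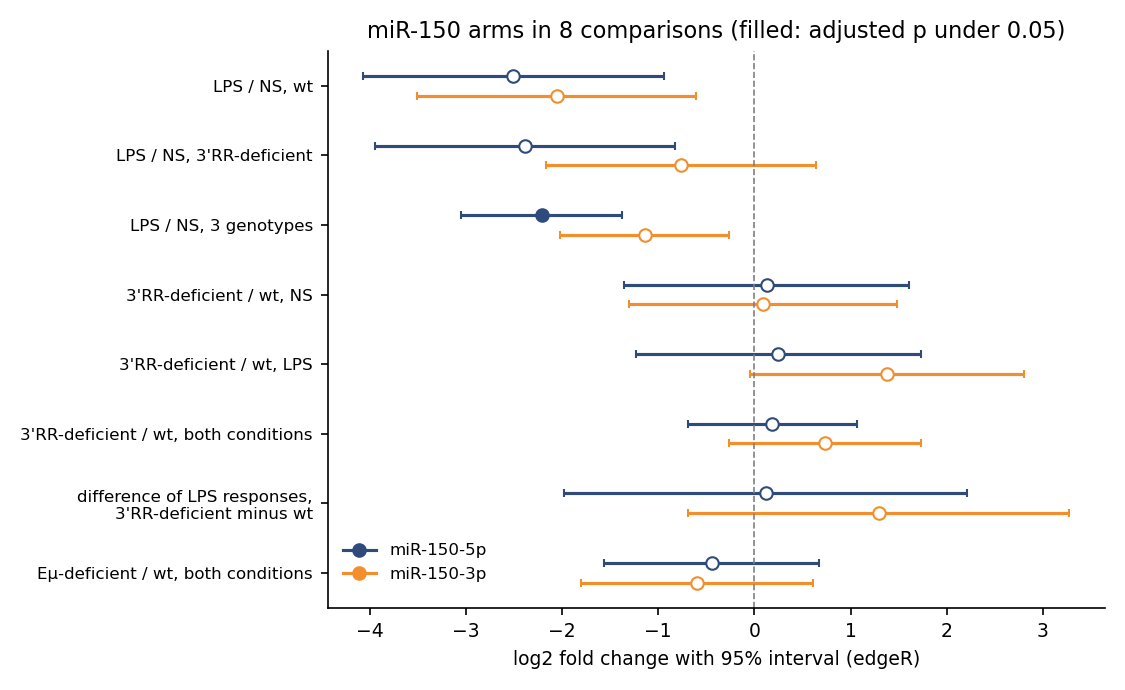
Log2 fold changes of miR-150-5p (dark blue) and miR-150-3p (orange) with 95% intervals from edgeR in 8 comparisons, filled where the adjusted p is under 0.05. The LPS responses of the 5p arm lie at -2.51, -2.39 and -2.21, and those of the 3p arm at -2.06, -0.77 and -1.14, while all genotype intervals include 0.

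Markers of other cell types also moved with LPS. Of 7 microRNAs listed for erythroid, myeloid and stromal or endothelial cells, 4 fell and 3 did not pass, where 6.98% of all features fell: miR-486a-5p (erythroid), miR-223-3p (myeloid) and the stromal miR-143-3p and miR-145a-5p fell. Their summed level was 3462 to 14974 CPM (median 7245) in NS and 272.5 to 5080 CPM (median 571.2) in LPS libraries, and miR-145a-5p was at 0 in both 3'RR-deficient LPS libraries. Their part in the fall of miR-150 was not tested. The table holds no microRNA that marks B-cells alone, so the cell type was not checked against the data, nor could T-cells and natural killer cells be looked for. In such bulk libraries fewer cells of a type and less RNA per cell cannot be told apart.

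**Figure D3:**
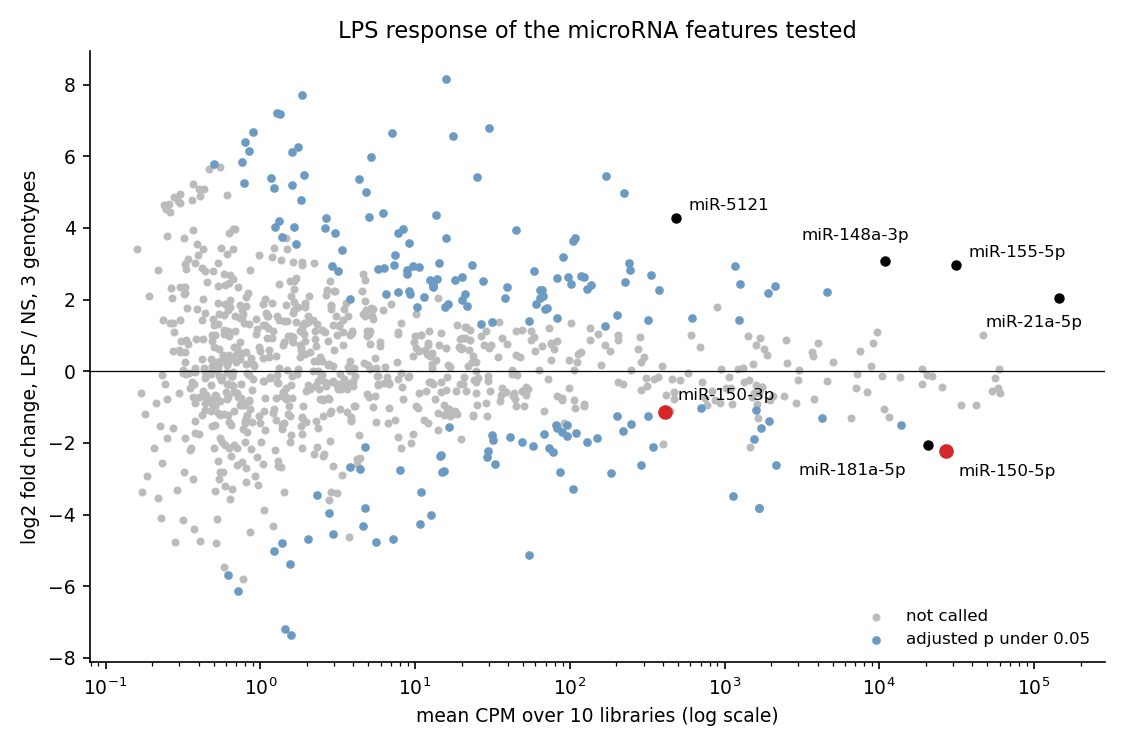
Mean level over 10 libraries (CPM, log scale) against the log2 fold change of LPS to NS over 3 genotypes for the 988 features tested, called features in blue, both miR-150 arms in red and other named microRNAs in black. MiR-150-5p (-2.21) and miR-181a-5p (-2.07) are the most abundant of the features that fell, and miR-150-3p (-1.14) did not pass.

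The second question was whether both arms changed alike. Their ratio comes from the same library and needs no scaling. In NS cells there were 91.6 and 67.9 reads of the 5p arm for each read of the 3p arm in wt, 76.9 and 78.0 in 3'RR-deficient and 100.6 in Eµ-deficient cells. With LPS there were 63.9 and 45.6 in wt, 24.9 and 25.4 in 3'RR-deficient and 47.1 in Eµ-deficient cells. The highest LPS ratio (63.9) was below the lowest NS ratio (67.9), so the conditions did not overlap.

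The mean log2 ratio was 6.36 in NS and 5.27 in LPS libraries, a difference of -1.09 (n = 5 in each condition). The exact permutation test within genotypes gave p = 0.0278 (two-sided, 72 arrangements), which is the smallest p this design can give. Without either wt NS library p was 0.0556, with differences of -1.05 and -1.16, and without the Eµ-deficient libraries it was 0.0556 (-1.08), the smallest p that 8 libraries allow. Without both second NS libraries the difference was -1.20 and p 0.0556, the smallest of the 18 arrangements left. Expressed as a share of all miR-150 reads, the 3p arm took 1.08% (Wilson 95% interval 1.05 to 1.11) and 1.45% (1.40 to 1.51) in wt NS cells and 1.54% (1.43 to 1.66) and 2.15% (2.02 to 2.28) with LPS. In 3'RR-deficient cells it took 1.28% (1.25 to 1.32) and 1.27% (1.22 to 1.32), and 3.86% (3.69 to 4.04) and 3.79% (3.65 to 3.93) with LPS. In Eµ-deficient cells it went from 0.984% (0.943 to 1.03) to 2.08% (2.00 to 2.17). The share of the 3p arm was thus highest in the 3'RR-deficient LPS libraries.

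**Figure D4:**
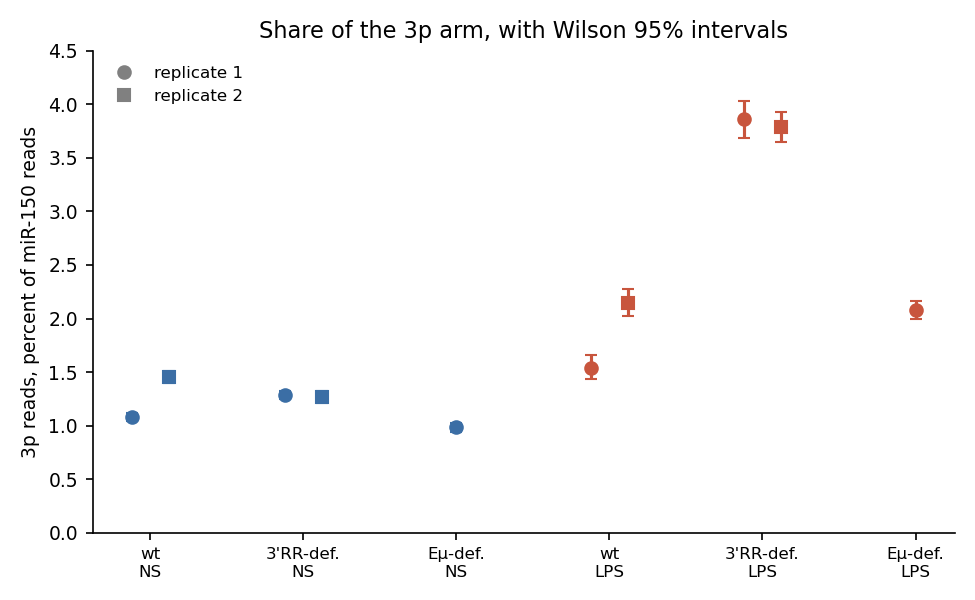
Share of the 3p arm among all miR-150 reads in each library (percent), NS in blue and LPS in red, with Wilson 95% intervals for counting error. NS libraries lie between 0.984% and 1.45%, wt and Eµ-deficient LPS libraries between 1.54% and 2.15%, and 3'RR-deficient LPS libraries at 3.79% and 3.86%.

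For context the same ratio was taken for the 25 hairpins, miR-150 included, in which both arms had a mean of at least 100 CPM. The median difference between LPS and NS libraries over them was -0.07 on the log2 scale, and 4 of the 25 (16%) had no overlap between conditions. A larger fall was seen in 3 hairpins than in miR-150 (-1.09), those of miR-155 (-2.61), miR-15b (-1.75) and miR-191 (-1.29). Counting rises as well, 9 hairpins had a larger difference. A change of the arm ratio with LPS was therefore not particular to miR-150.

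Next, miR-150 was compared between 3'RR-deficient and wt cells, to see whether it depends on this enhancer region. Without LPS the log2 fold change of 3'RR-deficient to wt cells was 0.13 (SE 0.67, 95% interval -1.35 to 1.61, adjusted p 1) for miR-150-5p and 0.09 (SE 0.63, 95% interval -1.31 to 1.49, adjusted p 1) for miR-150-3p. The direction of both was not settled: between same-numbered libraries it was 0.29 and -0.11 for the 5p and 0.55 and -0.31 for the 3p arm, and with DESeq2 size factors both were below 0. Without both second NS libraries the values were higher, 0.63 (SE 0.62) for the 5p and 0.89 (SE 0.55) for the 3p arm, with an adjusted p of 1. That setting compares 1 library with 1, so its SE and p come from the spread of the LPS libraries and are no replicate check of the NS difference. In this comparison 0 of 720 features (0%) passed with edgeR, 9 had an unadjusted p under 0.05 and DESeq2 called 1.

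With LPS miR-150-5p differed by 0.25 (SE 0.67, 95% interval -1.24 to 1.73, adjusted p 1), and the libraries of both genotypes overlapped. MiR-150-3p was at 414.1 and 310.4 CPM in 3'RR-deficient and at 142.3 and 144.5 CPM in wt cells, without overlap. Its log2 fold change was 1.38 (SE 0.64, 95% interval -0.04 to 2.80), 2.60-fold higher, with an unadjusted p of 0.0562 and an adjusted p of 1. In 15.4% of the 720 features both 3'RR-deficient LPS libraries were above both wt ones, so a lack of overlap between 2 and 2 libraries was frequent. No feature passed (0%) with edgeR, 15 had an unadjusted p under 0.05 and DESeq2 called 2. For the 3p arm the log2 ratio of same-numbered libraries was 1.54 and 1.10, and the fitted value stayed between 1.21 and 1.62 in all 21 settings tried, with adjusted p of 0.214 or more. Without both second NS libraries the fitted values were 0.29 for the 5p and 1.42 for the 3p arm.

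Over both conditions the values were 0.19 (SE 0.40, 95% interval -0.69 to 1.07) for the 5p and 0.73 (SE 0.45, 95% interval -0.26 to 1.73) for the 3p arm, each with an adjusted p of 0.997, where 1 of 720 features passed (0.139%). Without both second NS libraries they were 0.41 (adjusted p 0.889) and 1.24 (adjusted p 0.198). The LPS responses of both genotypes differed by 0.12 (SE 0.94, 95% interval -1.98 to 2.21) for miR-150-5p and by 1.29 (SE 0.89, 95% interval -0.69 to 3.28) for miR-150-3p, both with an adjusted p of 1. The value of the 3p arm rests on the wt NS libraries, as it was 1.93 without wt NS replicate 1, 0.69 without wt NS replicate 2 and 0.53 without both second NS libraries, and that of the 5p arm was -0.34 without the latter. There 0 of 720 features (0%) passed with edgeR, 5 had an unadjusted p under 0.05 and DESeq2 called 0. Within each condition the interval holds a 2-fold difference of the 5p arm in either direction, so a lack of calls does not show that the genotypes are alike.

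The arm ratio of 3'RR-deficient and wt cells was nearly the same without LPS, with mean log2 ratios of 6.27 (SD 0.014, n = 2) and 6.30 (SD 0.31, n = 2). With LPS it was 4.65 (SD 0.02, n = 2) in 3'RR-deficient and 5.75 (SD 0.34, n = 2) in wt cells, a difference of -1.10. No test was made, because an exact test of 2 against 2 libraries cannot go below 0.333. Among the 25 hairpins none had a larger difference in either direction, that of miR-155 coming next with 1.04, and 7 of 25 (28%) had no overlap between both genotypes. This ratio between genotypes was singled out after its values were seen.

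**Figure D5:**
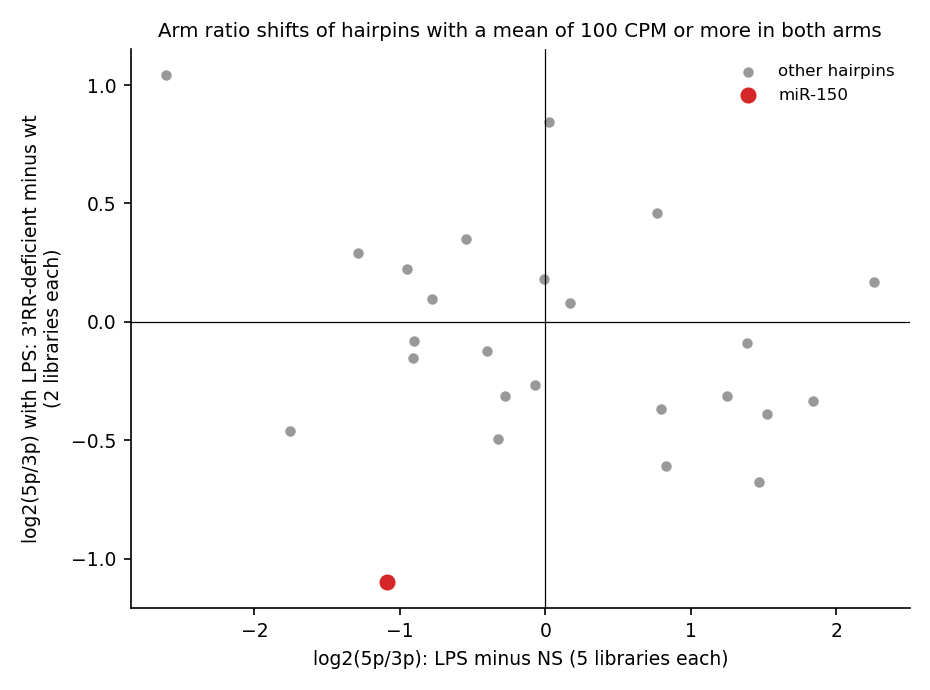
Difference of the log2 ratio of the 5p to the 3p arm between LPS and NS libraries (x axis) and between 3'RR-deficient and wt LPS libraries (y axis) for 25 hairpins, with miR-150 in red. MiR-150 lies at -1.09 and -1.10, with 3 hairpins further left and none lower.

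The fourth comparison concerned Eµ. Over both conditions Eµ-deficient cells differed from wt by -0.44 (SE 0.53, 95% interval -1.56 to 0.68, edgeR adjusted p 0.806) for miR-150-5p and by -0.60 (SE 0.57, 95% interval -1.80 to 0.61, adjusted p 0.747) for miR-150-3p, where 16 of 988 features passed (1.62%), 14 higher (1.42%) and 2 lower (0.202%). Within a condition there is 1 Eµ-deficient library, so values are given without a test. Without LPS both arms were lower than in each wt library, the 5p arm at 0.499 and the 3p arm at 0.391 times the geometric mean of wt. With LPS they were at 1.21 and 1.39 times that mean, the 5p arm above both wt libraries by a small margin (9376 against 9092 CPM). The test value of the 5p arm rests on the NS library, since without Eµ-deficient NS replicate 1 it was 0.057. Without both second NS libraries the values were 0.029 for the 5p and 0.11 for the 3p arm. The summed level of the 7 microRNAs of other cell types was highest in this NS library (14974 CPM, against 3462 and 7245 in wt NS), and its part in the lower miR-150 was not tested.

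Within 100 kb of Mir150 the table has 1 other microRNA, miR-5121. It lies 5106 bases from the 3p arm on the minus strand (chr7:45126925-45126945), inside the annotated snoRNA gene Snord33 and within Rpl13a. It moved the other way: it was at 124.5 and 107.5 CPM in wt NS and at 2641 and 1404 CPM in wt LPS cells, and its log2 fold change with LPS over genotypes was 4.28 (SE 0.40, adjusted p 9.92e-06). Levels in 3'RR-deficient cells were 11.1 and 10.5 CPM without and 282.0 and 153.9 CPM with LPS, and those in Eµ-deficient cells 7.88 CPM without and 122.1 CPM with LPS. Over both conditions it was lower in 3'RR-deficient cells (-3.26, SE 0.45, adjusted p 0.0125) and in Eµ-deficient cells (-4.09, SE 0.60, adjusted p 0.00286) than in wt. Neither miR-150 arm passed in these genotype comparisons.

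The profile of miR-150-5p over the 10 libraries was compared with those of the 155 other mature microRNAs with a mean of at least 100 CPM. The closest, by Pearson's r of log2 CPM, were miR-181a-5p (r = 0.982), miR-342-3p (0.960), miR-652-3p (0.947), miR-744-5p (0.935) and miR-1249-3p (0.925). All of these fell with LPS over genotypes, by log2 fold changes from -2.84 (miR-1249-3p) to -1.08 (miR-652-3p). The 3p arm of the same hairpin came in place 15 (r = 0.842). For miR-150-3p the closest were miR-139-5p (r = 0.914), miR-484 (0.898), let-7b-5p (0.893), miR-455-3p (0.888) and miR-1198-5p (0.866), and the 5p arm came in place 8. Apart from miR-484 (-0.61, adjusted p 0.261) these fell as well. The 10 points share library depth and the split by LPS, so these r are descriptions with no p.

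Beside miR-150, 15 microRNAs with known roles in B-cells were listed, and all were tested. Over genotypes 5 rose with LPS, 2 fell and 8 did not pass, where 11.8% of all features rose and 6.98% fell, with a median log2 fold change of 0.93 against 0.09 for all 988 features. MiR-155-5p, needed for germinal centre responses and a repressor of the mutator enzyme AID, rose from 7342 CPM ± 1230.2 to 55508 ± 30178 (SD, n = 5 each; log2 fold change 2.95, SE 0.42, adjusted p 0.000413). MiR-17-5p, of a growth-promoting microRNA cluster (2.93), miR-148a-3p, linked to B-cell tolerance (3.08), miR-34a-5p, which p53 induces (2.29), and miR-182-5p (2.83) rose too. The 2 that fell were miR-181a-5p, which tunes antigen receptor signalling (-2.07, adjusted p 0.00311), and miR-125b-5p (-2.82, adjusted p 0.00192). With a mean of 45484 CPM ± 15164 (SD, n = 5) in NS cells, miR-150-5p was above both of them.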

How the data were processed

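The authors deposited 1 table of whole-number read counts, not normalized, with a row for each small RNA feature. Per the labels, RNA of pooled cells was made into libraries (NextFlex kit, 17 PCR cycles, 75 nt reads), and the submitters' processing notes name cutadapt 1.2.1, Bowtie2 and mm10. The counting program, its use of strand and the handling of reads with several matches are not given in the sources used here, nor is a test for these counts.

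The 2015 microRNA features were analysed with edgeR 4.0.16 (R 4.3.3): TMM scaling, filterByExpr, quasi-likelihood F-test (two-sided) and Benjamini-Hochberg adjustment over all features tested, with a threshold of 0.05. The 8 wt and 3'RR-deficient libraries were fitted with a mean per group or with additive terms for genotype and stimulation (720 features), and all 10 with additive terms (988 features). Intervals of fold changes come from the same fits. Arm ratios used a pseudocount of 0.5, and log2 levels a prior count of 2. Profiles were compared by Pearson's r, and for each arm the 5 closest microRNAs were named. Replicates are pools of 2 mice, and nothing states separate cultures, so p-values measure the spread between these libraries. Alternatives were the DESeq2 1.42.0 Wald test, other scalings and filters, a GC correction, a replicate block and leaving out libraries. The calculations were run on simulated data with known changes, a check of the code whose outcome is not given here. The members and lists were chosen with earlier results of these data known.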

Additional observations from a re-analysis of the deposited data

How the results depend on the processing

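The call of miR-150-5p over genotypes was kept in all settings that adjust p over features. The exact permutation test gave an unadjusted p of 0.0278. All features of the table, scaled together, moved the median of the microRNA features from 0.09 to -0.58, so changes there are relative to that shift. With LPS over genotypes miR-150-3p passed with DESeq2 size factors (-1.27, adjusted p 0.0478), the DESeq2 Wald test (-1.27), all features (-1.75), the GC correction (-0.97), that correction with the replicate block (-0.97), without both second NS libraries (-0.85), with 8 libraries (-1.41, adjusted p 0.0487) and by the exact permutation test (-1.25, p = 0.0278); leaving out 1 library gave -1.49 to -0.86. The p of the exact permutation test is not adjusted over features. The GC correction gave a value for the 3p arm only. In wt the arms passed with DESeq2 (-2.66 and -2.21), with a replicate block within culture condition (-2.05 and -1.53), the 5p arm without both second NS libraries (-2.18) and the 3p arm with the GC correction without and with the replicate block (both -1.67); leaving out 1 library gave -3.09 to -2.20 and -2.79 to -1.46. In 3'RR-deficient cells the 5p arm passed with DESeq2 (-2.39), the block within condition (-1.96) and without both second NS libraries (-2.52), and leaving out 1 library gave -2.64 to -2.28.

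3'RR-deficient against wt cells without LPS turned sign with DESeq2 size factors (-0.024 and -0.071 for the 5p and 3p arm) and the DESeq2 Wald test (-0.024 and -0.070), and the 3p arm also with total count scaling (-0.064), the 10 CPM filter (-0.032) and mature microRNAs alone (-0.017); leaving out 1 library gave -0.34 to 0.48 and -0.53 to 0.72. The difference of the LPS responses turned for the 5p arm with all features (-0.069) and without both second NS libraries (-0.34), and leaving out 1 library gave -0.20 to 0.61 for the 5p and 0.69 to 1.93 for the 3p arm. Eµ-deficient against wt cells turned without both second NS libraries (0.029 and 0.11), and leaving out 1 library gave -0.85 to 0.057 and -1.01 to -0.04. None of these passed in any setting. For the arm ratio p was 0.0556 with 8 libraries (-1.08) and without both second NS libraries (-1.20), and 0.0625 with labels permuted within genotype and number, the replicate block (-1.09), each the smallest p that setting allows; leaving out 1 library gave -1.27 to -0.93.

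The number of calls for the LPS response moved from 5 to between 0 and 99 in wt, from 7 to between 0 and 90 in 3'RR-deficient cells and from 186 to between 107 and 374 over genotypes. For Eµ-deficient against wt cells it moved from 16 to between 1 and 156, and for 3'RR-deficient against wt cells from 0 to at most 1 without and 2 with LPS and from 1 to between 0 and 7 over both conditions. The replicate numbers did not pair the libraries throughout: replicate differences correlated with r = 0.654 between the NS groups, 0.112 between the LPS groups and -0.281 to -0.058 across conditions, so the numbers were not taken as pairs across all groups, although NS libraries of the same number departed together. The replicate block moved the calls in wt to 27 and in 3'RR-deficient cells to 11, and changed no call of either arm. The block within culture condition and the setting without both second NS libraries were added after the data were seen. Where a setting leaves a group with 1 library, that library is assumed to vary like the other groups.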

Other observations

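The count table also has a piRNA cluster region (piRNAclusterDB_250) on the minus strand at chr7:45117753-45130020, opposite to Mir150 and spanning it. It held 5283 to 32934 counts per library. In a fit of all feature classes its log2 fold change with LPS over genotypes was -0.89 (SE 0.33, edgeR adjusted p 0.118), and it was not called between 3'RR-deficient and wt cells (-0.30, adjusted p 0.999) or between Eµ-deficient and wt cells (0.68, adjusted p 0.539). Whether the counting kept strands apart is not stated. In each library the cluster's counts were below those of miR-150-5p alone, which lies inside it on the other strand and had 45299 to 362299 counts per library.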
